A study of Rattus norvegicus with 36 samples.

Results

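The 10 genes described here carry out or control de novo fatty acid synthesis: Fasn, Acaca, Acly, Scd, Elovl6, Me1, Srebf1, Acss2, Thrsp and Pnpla3. They were chosen by gene symbol, as the probe sets that the array's annotation assigns to each symbol, and are 10 of the 14217 genes that the array names. The 10 genes have 19 probe sets, and all 19 passed the filter on dim probe sets. Acly, Scd and Acss2 have 1 probe set each. RNA of mammary glands from Cop (Copenhagen) and F344 (Fischer) rats was hybridised to Affymetrix arrays, 18 for each strain. The treated groups of each strain received N-nitrosomethylurea (NMU) at 55 days of age, and the control groups of each strain received saline vehicle at the same age. Glands were taken 6 h, 1 d or 30 d later, which gives 12 groups of 3 arrays. NMU is an alkylating carcinogen that induces mammary tumours in rats, F344 is susceptible to it and Cop is resistant. The sources used here do not give the dose of NMU, the hour of day at collection or the feeding state of the rats.

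Fatty acids are built in the cytosol from acetyl-CoA. ATP citrate lyase (Acly) makes acetyl-CoA from citrate, and Acss2 makes it from acetate. Acetyl-CoA carboxylase (Acaca) commits it to synthesis, and fatty acid synthase (Fasn) makes palmitate with NADPH, part of which comes from malic enzyme (Me1). Elovl6 lengthens palmitate, and the desaturase Scd makes monounsaturated chains. Srebf1 encodes SREBP-1, the transcription factor that insulin activates and that binds promoters of most of these genes. Thrsp (Spot 14) is a nuclear protein that promotes lipogenesis in liver, fat and mammary gland, and Pnpla3 encodes a lipid droplet protein whose gene is an SREBP-1 target. In the mammary gland of a virgin rat most of the fat-storing cells are adipocytes of the fat pad, while the epithelium makes milk fat in lactation.

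Promoter sequence, from 250 bases before to 50 bases after the start of transcription, was at hand for 7 of the 10 genes in RefSeq's GRCr8 tables, with 2 starts for Srebf1. Fasn, Acaca and Elovl6 are named only. The windows of Acly, Srebf1 and Pnpla3 are shown because these genes stand for the pathway's first enzyme, its regulator and the gene with the largest change after NMU, a choice made after the values were seen. Capitals mark the GC box GGGCGG, the letters that Sp1 binds, and the Y-box CCAAT, the letters that NF-Y binds. Both are searched on both strands, and a match on the reverse strand reads CCGCCC or ATTGG.
Acly promoter (minus strand, chr10:85963582-85963881): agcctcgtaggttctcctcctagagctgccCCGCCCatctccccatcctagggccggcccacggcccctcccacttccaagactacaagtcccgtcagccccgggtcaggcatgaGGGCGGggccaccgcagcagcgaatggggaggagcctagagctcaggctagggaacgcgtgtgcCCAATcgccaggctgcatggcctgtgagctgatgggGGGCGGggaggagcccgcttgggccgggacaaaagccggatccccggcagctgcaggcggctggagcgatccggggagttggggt
Srebf1 promoter of the outer start (minus strand, chr10:45529115-45529414): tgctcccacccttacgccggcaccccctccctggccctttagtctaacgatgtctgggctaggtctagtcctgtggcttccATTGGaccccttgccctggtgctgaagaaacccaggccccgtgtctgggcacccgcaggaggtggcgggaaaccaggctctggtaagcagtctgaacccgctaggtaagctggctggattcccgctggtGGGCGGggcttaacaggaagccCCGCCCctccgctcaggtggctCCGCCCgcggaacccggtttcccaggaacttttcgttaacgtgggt
Srebf1 promoter of the inner start (minus strand, chr10:45518961-45519260): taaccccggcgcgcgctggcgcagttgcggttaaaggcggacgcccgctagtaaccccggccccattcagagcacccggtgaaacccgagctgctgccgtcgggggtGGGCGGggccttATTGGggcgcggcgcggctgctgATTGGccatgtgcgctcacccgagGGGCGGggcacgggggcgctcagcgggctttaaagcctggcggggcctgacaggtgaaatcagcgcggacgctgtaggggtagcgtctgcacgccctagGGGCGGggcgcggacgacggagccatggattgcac
Pnpla3 promoter (plus strand, chr7:117173278-117173577): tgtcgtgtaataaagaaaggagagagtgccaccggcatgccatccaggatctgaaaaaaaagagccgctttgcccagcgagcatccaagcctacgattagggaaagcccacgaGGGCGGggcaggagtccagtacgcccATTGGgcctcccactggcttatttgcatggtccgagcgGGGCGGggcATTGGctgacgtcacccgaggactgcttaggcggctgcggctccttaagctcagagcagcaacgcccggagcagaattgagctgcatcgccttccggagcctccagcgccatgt
A GC box was present in 7 of the 8 windows of the fatty acid synthesis genes, against 33.1% of all 33469 rat promoters of 300 bases. A Y-box was present in 6 of the 8 windows, against 37.5% of all promoters. TCACNCCAC, a form of the sterol response element (SRE) that SREBP binds, was in 0 of the 8 windows and in 1.12% of all promoters. The E-box CACGTG, which SREBP-1 and ChREBP can bind, was also in 0 of the 8 windows and in 6.42% of all promoters. No pair of matches overlapped in the windows shown. These matches are letters in a short window and say nothing about binding.

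Where a gene has several probe sets, the one with the highest mean stands for it, and values are the deposited log2 expression values, so that a difference of 1 is a change of 2-fold. Levels of different probe sets are not comparable, and only differences between groups are set side by side. The labels call the replicates biological but do not say that each array is a separate animal, so the p-values measure the spread between these arrays. Differences were tested with limma on all 36 arrays, with p-values adjusted over all 20749 probe sets tested, and a gene was called at an adjusted p under 0.05. On its own array a probe set's percentile shows only whether it is dim and does not order genes by level, and the median percentile of the 10 representative probe sets ran from 82.1 to 99.9. The lowest percentile of any of them on a single array was 42.1, for Pnpla3. The glands held signal of adipocytes (Adipoq at a median percentile of 99.4) and of epithelium (Krt8 at 95.1). The brown fat gene Ucp1 (median percentile 24.7) was too dim to be tested, but 4 other brown adipocyte markers were tested. Skeletal muscle markers differed widely between single arrays: their score, the mean log2 deviation over 15 genes, ranged from -4.35 to 2.81. These are bulk glands, so fewer cells of a type and less RNA per cell cannot be told apart.

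**Figure D1:**
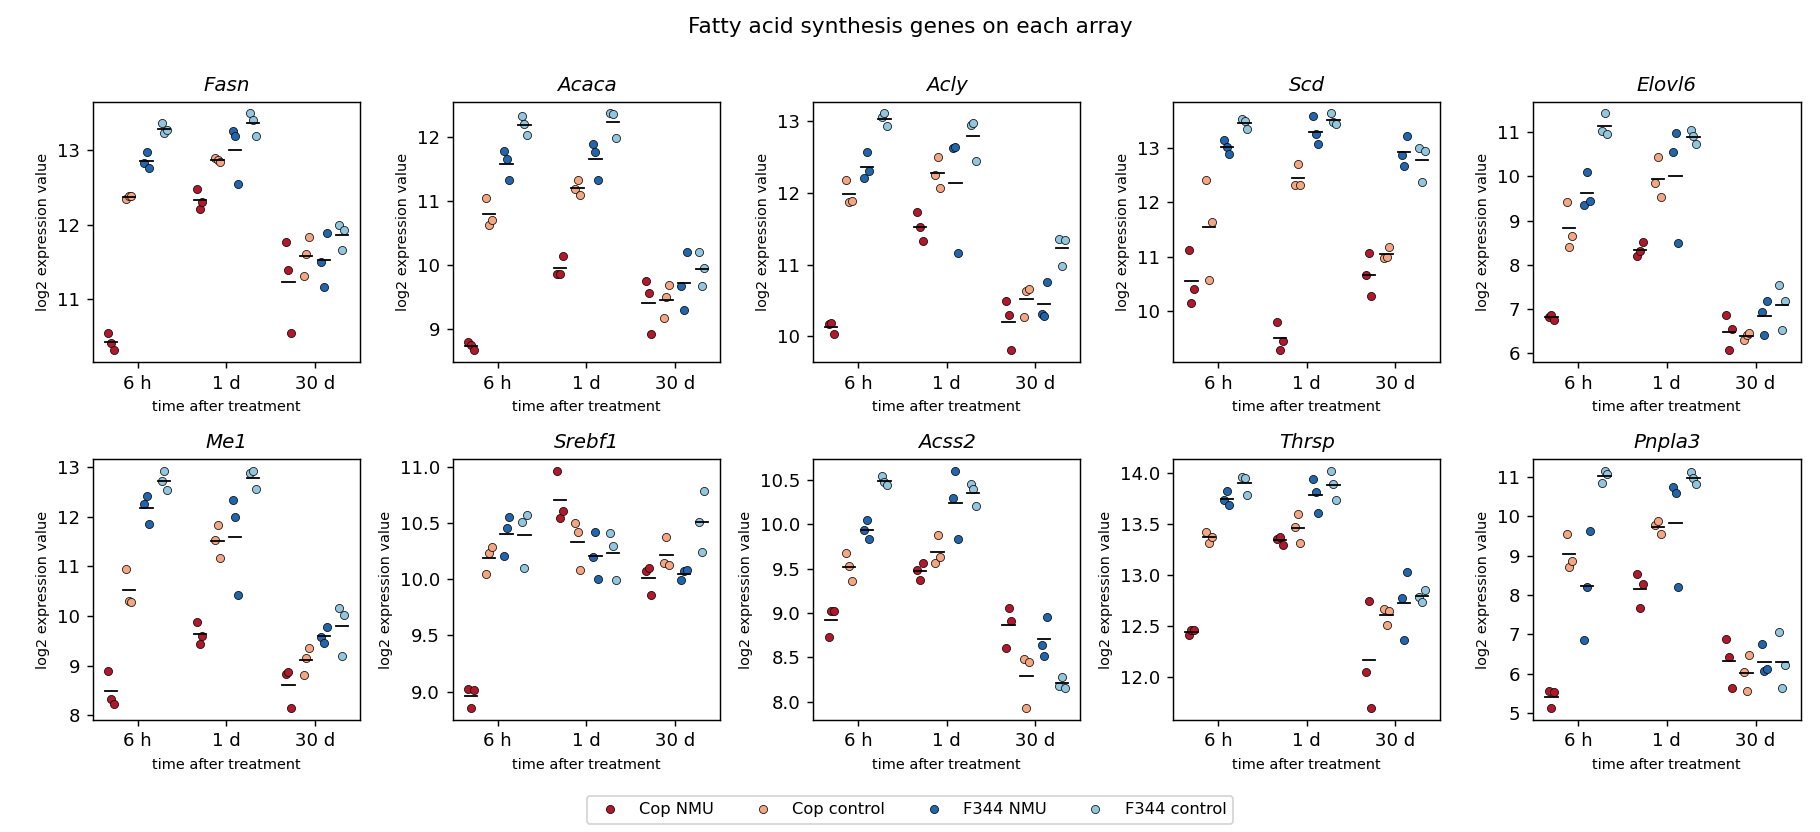
Log2 expression value (y axis) of each of the 10 genes against time after treatment (x axis). Each point is 1 array, lines are means of 3 arrays, and colours give strain and treatment. In Cop at 6 h the 3 NMU arrays of Fasn lie between 10.30 and 10.54, below the 3 control arrays, which lie between 12.34 and 12.39.

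In Cop glands 6 h after NMU, all 10 genes fell. The median log2 difference of the 10 was -1.90, against 0.00 over all 11504 genes tested, and 2.83% of all probe sets were called lower in this comparison. The differences ran from -3.63 for Pnpla3 to -0.60 for Acss2. For 9 of the 10 genes every NMU array lay below every control array, against 14.5% of all probe sets, the exception being Scd.

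The enzymes of the central route fell about alike. Fasn had log2 values of 10.54, 10.40 and 10.30 in Cop NMU glands, against 12.34, 12.39 and 12.39 in Cop controls. That was a difference of -1.96 (SE 0.21, adjusted p = 7.83e-07), or 3.89-fold lower, and the control arrays differed by less than the NMU arrays. Acaca had 8.79, 8.75 and 8.66 in NMU glands and 11.05, 10.63 and 10.70 in controls, a difference of -2.06 (SE 0.20, adjusted p = 3.18e-07). Acly had 10.18, 10.19 and 10.03 in NMU glands and 12.17, 11.88 and 11.89 in controls, a difference of -1.84 (SE 0.25, adjusted p = 3.2e-05). The enzymes that make acetyl-CoA from citrate, carboxylate it and join it into palmitate were thus each between 3.59-fold and 4.16-fold lower. Me1, which supplies NADPH, had 8.90, 8.32 and 8.23 in NMU glands, against 10.94, 10.31 and 10.29 in controls (difference -2.03, SE 0.33, adjusted p = 0.000259). Elovl6 had 6.81, 6.86 and 6.75 in NMU glands, against 9.43, 8.40 and 8.66 in controls (difference -2.03, SE 0.40, adjusted p = 0.00187). The NMU arrays of Elovl6 spanned far less than the controls, of which replicate 1 was highest.

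The other route to acetyl-CoA and the desaturase changed less. Acss2 had 8.73, 9.02 and 9.02 in Cop NMU glands, against 9.68, 9.54 and 9.36 in controls, a difference of -0.60 (SE 0.16, adjusted p = 0.0182). Its call was lost without control replicate 1 (adjusted p = 0.117), control replicate 2 (adjusted p = 0.0535) or NMU replicate 1 (adjusted p = 0.0975). Scd had 11.12, 10.15 and 10.40 in NMU glands, against 12.41, 10.57 and 11.63 in controls, a difference of -0.98 (SE 0.29, adjusted p = 0.0426). The arms overlapped, since control replicate 2 lay below NMU replicate 1. The Scd call was lost without control replicate 1 (difference -0.55, adjusted p = 0.374), control replicate 3 (adjusted p = 0.117), NMU replicate 2 (adjusted p = 0.235) or NMU replicate 3 (adjusted p = 0.16). It was also lost with the muscle score as a covariate (adjusted p = 0.113), with the adipocyte score as a covariate (adjusted p = 0.0549), without the filter on dim probe sets (adjusted p = 0.0682) and on the compared arrays alone (adjusted p = 0.382). Scd has a close paralog, Scd2, and a single probe set, and how much of the paralog's RNA it reads was not tested.

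The regulator and the regulated lipid proteins fell as well. Srebf1 had 9.02, 8.85 and 9.01 in Cop NMU glands and 10.05, 10.23 and 10.29 in controls, a difference of -1.23 (SE 0.15, adjusted p = 4.33e-06). Thrsp had 12.41, 12.46 and 12.46 in NMU glands, against 13.43, 13.32 and 13.37 in controls (difference -0.93, SE 0.16, adjusted p = 0.000297). Both arms of Thrsp were tight and lay far apart. Pnpla3 had 5.56, 5.13 and 5.53 in NMU glands, against 9.55, 8.71 and 8.86 in controls (difference -3.63, SE 0.55, adjusted p = 0.000121), or 12.4-fold lower. The other 9 probe sets of these genes were all called lower too, with differences between -3.90 for another probe set of Pnpla3 and -0.96 for another of Thrsp. The other 2 probe sets of Pnpla3 were dim in these NMU glands, with means of 4.84 and 4.36 and with 2 and 3 of the 3 arrays at or below the array's 40th percentile, the limit of the filter on dim probe sets, so the sizes of their differences, -3.90 among them, are not exact. The representative probe set of Pnpla3 was low in these NMU glands too. All 3 of its values lay below the lowest array median of 5.66, so the 12.4-fold size is not exact. The second probe set of Fasn gave a larger difference of -2.88.

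Genes around the pathway moved in part. Of 35 other genes of fatty acid synthesis and NADPH supply, 9 fell and 3 rose in Cop at 6 h, with a list median of -0.17. Of all probe sets 2.83% were called lower and 3.74% higher. Among those that fell were Slc25a1 (-1.07), the mitochondrial citrate exporter, Pc (-0.96), pyruvate carboxylase, Mdh1 (-0.61), the cytosolic malate dehydrogenase, and Elovl5 (-0.53), an elongase of polyunsaturated chains. The 3 that rose, named after their values were seen, were Hacd1 (1.02), Prkaa1 (0.66), a catalytic subunit of the kinase AMPK, and Idh1 (0.42), a cytosolic source of NADPH. Of 25 regulators, 5 fell and 0 rose (median -0.07): Insig1 (-1.69), which holds SREBP in the endoplasmic reticulum and is itself an SREBP target, Mlxipl (-1.50), which encodes ChREBP, Pparg (-0.96), Srebf2 (-0.89) and Mlx (-0.73), the partner of ChREBP. Mlx is named here after its value was seen. Of 16 genes of triglyceride synthesis, 4 fell and 0 rose (median -0.24): Dgat2 (-1.79), Agpat2 (-1.56), Gpd1 (-1.45) and Gpam (-1.40). Of 12 genes that respond to fasting or feeding, Angptl8, a hormone-like protein induced by feeding, fell by 4.36 on the log2 scale. Its mean of 5.32 in Cop NMU glands lay below the lowest array median of 5.66, so this size is not exact. Pdk4 (3.59), which blocks pyruvate oxidation, Angptl4 (2.92), an inhibitor of lipoprotein lipase, Cpt1a (1.47), which admits fatty acids to mitochondria, and Acadl (0.57), named after its value was seen, rose.

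Markers of the gland's cell types moved beside these changes. Of 17 white adipocyte markers, 3 fell in Cop at 6 h (Adrb3 -1.37, Cebpa -0.76 and Lpl -0.39) and 0 rose, and the adipocyte score ranged from -0.40 to -0.10 in NMU glands and from -0.09 to 0.08 in controls. Of 15 skeletal muscle markers 0 were called, but their score ranged from -0.42 to 0.93 in NMU glands and from -3.46 to -1.05 in controls. Of 15 luminal markers 0 were called (score -0.70 to 0.51 in NMU glands, -0.04 to 0.69 in controls), and 2 of 11 lymphocyte markers fell (score -0.97 to 0.03 in NMU glands, 0.37 to 0.89 in controls). With the adipocyte score as a covariate 9 of the 10 genes remained called, against 3.69% of probe sets called lower in that fit. With the muscle score as a covariate it was also 9, against 1.6% of probe sets, and Scd was the gene lost each time. The part of luminal and lymphocyte content in the result was not tested.

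**Figure D2:**
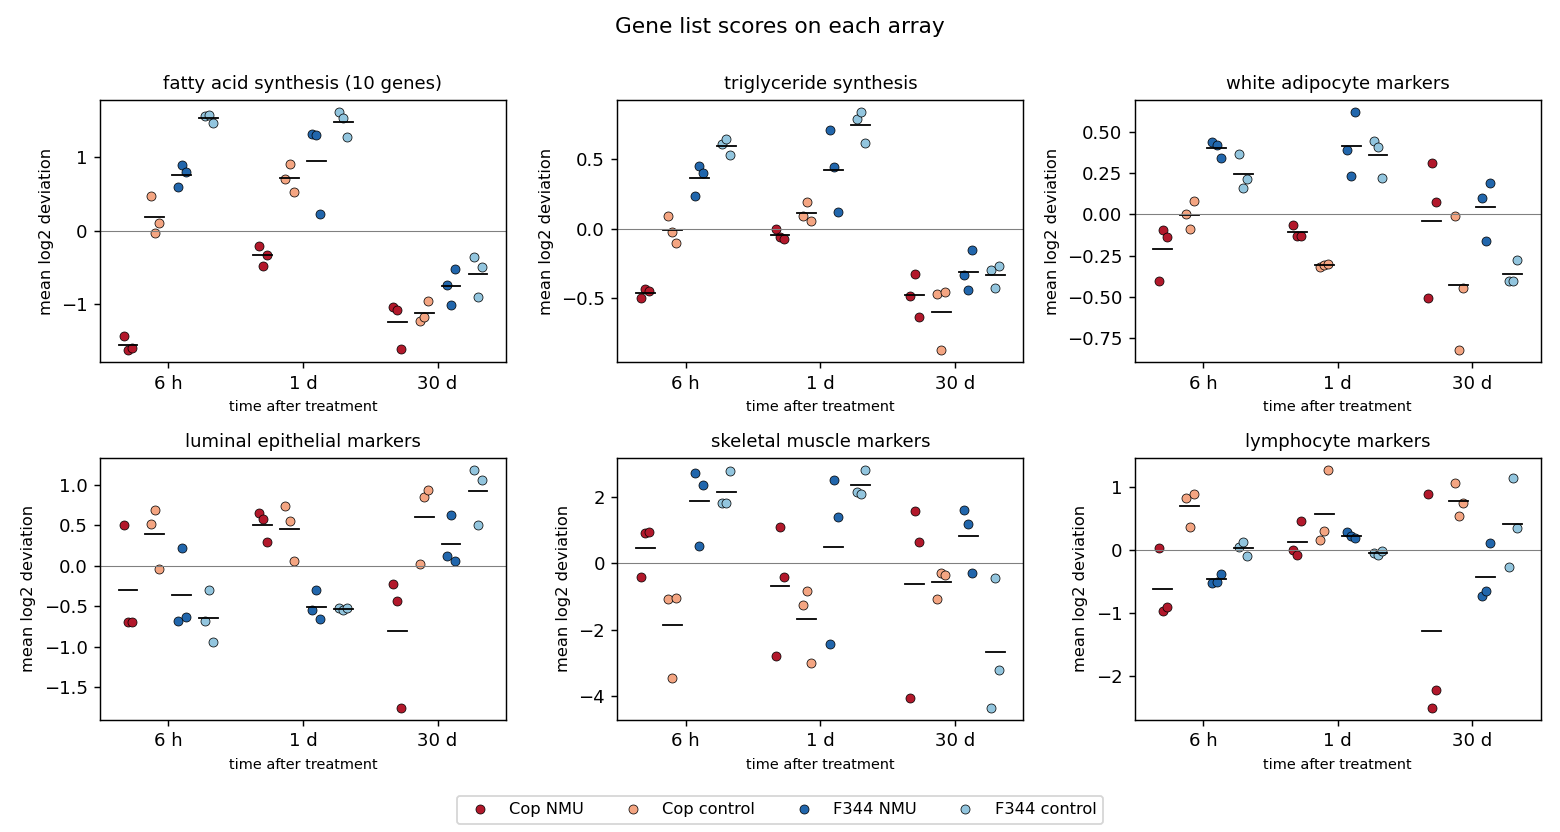
Score of 6 gene lists on each array (y axis: mean log2 deviation of the list's genes from their own means; x axis: time after treatment). Points are arrays, lines are means of 3 arrays, and colours give strain and treatment. The fatty acid synthesis score of Cop NMU arrays at 6 h lies between -1.62 and -1.43, below every Cop control array of that time (-0.04 to 0.47). The adipocyte scores of the same NMU arrays (-0.40 to -0.10) also lie below those controls (-0.09 to 0.08). Sizes of scores from different lists are not comparable.

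In F344 glands at 6 h, 1 of the 10 genes was called, against 0.246% of all probe sets called lower in this comparison. The median log2 difference of the 10 was -0.55, against 0.07 over all genes tested, 9 of the 10 differences were negative, and 6 had an unadjusted p under 0.05. For 8 of the 10 genes every NMU array lay below every control array, against 1762 of the 20749 probe sets, the exceptions being Thrsp and Srebf1. Pnpla3 had 6.87, 8.20 and 9.64 in F344 NMU glands, against 10.85, 11.15 and 11.07 in F344 controls, a difference of -2.79 (SE 0.55, adjusted p = 0.016). The NMU arrays were spread widely and all lay below the controls. The call was lost without control replicate 2 (adjusted p = 0.0863), control replicate 3 (adjusted p = 0.0701), NMU replicate 1 (difference -2.11, adjusted p = 0.114) or NMU replicate 2 (adjusted p = 0.0726). It was also lost on the compared arrays alone (adjusted p = 0.237). Another of its probe sets was called (-3.23, adjusted p = 0.0116) and the dimmest, at or below the 40th percentile in 1 of the 3 NMU arrays, was not (-2.17, adjusted p = 0.0744).

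The other members in F344 at 6 h did not pass the test. Elovl6 had 9.36, 10.10 and 9.45 in NMU glands, against 11.02, 11.43 and 10.96 in controls (difference -1.50, SE 0.40, adjusted p = 0.0783), without overlap between the arms. Its adjusted p was 0.0453 when its probe sets were averaged. Acss2 had 9.93, 10.04 and 9.83 in NMU glands, against 10.54, 10.48 and 10.44 in controls (difference -0.55, SE 0.16, adjusted p = 0.105). Its adjusted p was 0.043 with the adipocyte score as a covariate and 0.0463 after quantile normalization. Acly (-0.67), Acaca (-0.61), Me1 (-0.54), Scd (-0.44), Fasn (-0.43) and Thrsp (-0.15) had smaller negative differences. Srebf1 had 10.21, 10.46 and 10.56 in NMU glands, against 10.51, 10.11 and 10.57 in controls (difference 0.01, 95% interval -0.29 to 0.31). Of the lists, Insig1 (-1.69) was the regulator called and Aacs (-1.01), which uses acetoacetate for lipid synthesis, the gene called of the 35 others. The adipocyte score was 0.34 to 0.44 in NMU glands and 0.16 to 0.36 in controls, and 0 of the 17 adipocyte markers were called. All 11 lymphocyte markers had negative differences and 0 were called, and their score was -0.52 to -0.38 in F344 NMU glands and -0.09 to 0.13 in controls, without overlap. The part of lymphocyte content in the F344 values was not tested.

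Whether the strains responded differently at 6 h was tested as the Cop difference minus the F344 difference. All 10 values were negative, with a median of -1.01 against -0.08 over all genes tested, and 3 of the 10 were called, against 0.198% of probe sets called lower. Srebf1 gave -1.24 (SE 0.21, adjusted p = 0.00138), from a difference of -1.23 in Cop and of 0.01 in F344. Fasn gave -1.53 (SE 0.29, adjusted p = 0.00528), and Acaca gave -1.45 (SE 0.29, adjusted p = 0.00752). With Acaca's probe sets averaged its value was -1.25 (adjusted p = 0.0521). Me1 (-1.49, adjusted p = 0.17), Acly (-1.17, adjusted p = 0.14) and Thrsp (-0.78, adjusted p = 0.102) were not called, although another probe set of Thrsp was (-1.01, adjusted p = 0.029). On the compared arrays alone 6 of the 10 were called, against 0.66% of probe sets called lower in that fit. For Pnpla3 (-0.84, 95% interval -2.44 to 0.75), Elovl6 (-0.52, -1.69 to 0.64), Scd (-0.54, -1.39 to 0.32) and Acss2 (-0.04, -0.50 to 0.41) the intervals included 0. Among the other lists the strain difference was called for Pparg (-1.18), Dgat2 (-1.38), Adrb3 (-1.60) and Angptl8 (-3.37), all lower in Cop. The size for Angptl8 is not exact, since its Cop NMU mean lay below the lowest array median. The muscle list had a median strain difference of 2.79 with 0 of 15 markers called.

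**Figure D3:**
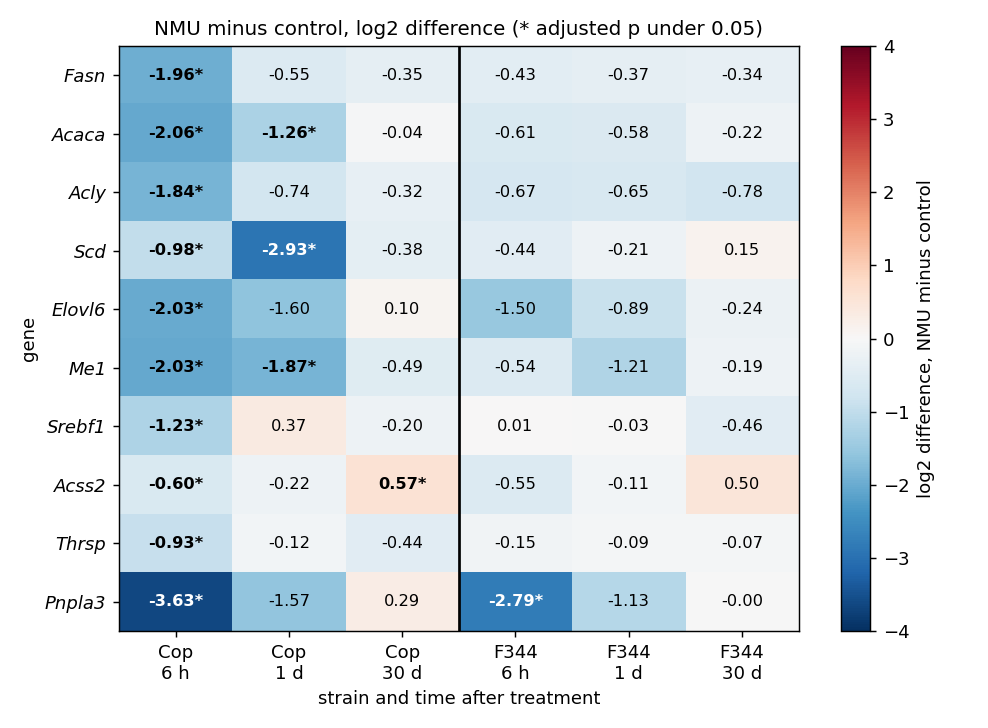
Log2 difference, NMU minus control, of each gene (rows) in each strain and time (columns). Colour and printed values give the difference, and bold values with a star had an adjusted p under 0.05. All 10 genes carry a star in Cop at 6 h, 3 in Cop at 1 d, Acss2 in Cop at 30 d and Pnpla3 in F344 at 6 h.

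In Cop at 1 d the pattern had split. Scd, Me1 and Acaca were lower in NMU glands and the other 7 genes were not called, against 0.352% of probe sets called lower, and the median of the 10 was -1.0 against 0.00 over all genes tested. Scd had 9.81, 9.28 and 9.46 in NMU glands, against 12.32, 12.70 and 12.31 in controls, a difference of -2.93 (SE 0.29, adjusted p = 4.2e-06), or 7.63-fold lower. The arms lay far apart, unlike at 6 h. Me1 had 9.88, 9.43 and 9.59 in NMU glands, against 11.54, 11.83 and 11.16 in controls (difference -1.87, SE 0.33, adjusted p = 0.00412). Acaca had 9.86, 9.86 and 10.14 in NMU glands, against 11.20, 11.34 and 11.10 in controls (difference -1.26, SE 0.20, adjusted p = 0.0015). All 3 kept their call without any 1 array of the comparison.

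Among the 7 not called in Cop at 1 d, several were near the threshold and others near 0. Elovl6 had 8.20, 8.31 and 8.51 in NMU glands, against 9.86, 10.43 and 9.53 in controls, a difference of -1.60 (SE 0.40, adjusted p = 0.0525). With the replicate number as a block Elovl6 was called (adjusted p = 0.0453), so that 4 of the 10 were, against 0.275% of probe sets called lower in the blocked fit. That same-numbered arrays are pairs was not shown. Its second probe set was called without the block (-1.84, adjusted p = 0.0107). Pnpla3 had 8.54, 7.68 and 8.27 in NMU glands, against 9.77, 9.88 and 9.54 in controls (difference -1.57, SE 0.55, adjusted p = 0.223). On the compared arrays alone 7 of the 10 were called, with Elovl6, Pnpla3, Acly (-0.74) and Fasn (-0.55) added, against 0.708% of probe sets called lower in that fit. Fasn had 12.47, 12.21 and 12.30 in NMU glands and 12.90, 12.87 and 12.85 in controls (adjusted p = 0.272). Thrsp differed by -0.12 (95% interval -0.45 to 0.20) and Acss2 by -0.22 (-0.54 to 0.11). Srebf1 was the member with a positive difference: its NMU arrays had 10.97, 10.54 and 10.61, all above the controls with 10.50, 10.42 and 10.08 (difference 0.37, SE 0.15, adjusted p = 0.319).

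The change in the Cop response between the times was tested as the NMU difference at 1 d minus that at 6 h. It was called higher for 3 genes, against 0.776% of probe sets, and lower for 1 gene, against 1.64% of probe sets. Srebf1 gave 1.60 (SE 0.21, adjusted p = 4.76e-05), from a difference of 0.37 at 1 d and of -1.23 at 6 h. Fasn gave 1.41 (SE 0.29, adjusted p = 0.00526), and Thrsp gave 0.81 (SE 0.22, adjusted p = 0.0464). Thrsp lost its call without any 1 of the 12 Cop arrays of these times (adjusted p between 0.0574 and 0.117) and in the fit with the replicate block (adjusted p = 0.0572). It was also lost with the adipocyte score (adjusted p = 0.124) or the muscle score (adjusted p = 0.0571) as a covariate, after quantile normalization (adjusted p = 0.17), without the filter (adjusted p = 0.061) and without trend and robust options (adjusted p = 0.0657). Both of its other probe sets were called (0.90, adjusted p = 0.00972, and 1.17, adjusted p = 0.00431). In that blocked fit Acly, with a change of 1.10, was called (adjusted p = 0.0348, against 0.114 without the block).

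Scd went the other way, with -1.95 (SE 0.42, adjusted p = 0.0079), since its difference was -2.93 at 1 d and -0.98 at 6 h. On the compared arrays alone the adjusted p of Scd was 0.161, and 6 genes were called higher, against 1.28% of probe sets, and 0 lower, against 2.33%. Me1 changed by 0.16 (95% interval -0.81 to 1.12) and Elovl6 by 0.42 (-0.74 to 1.58). Among the other lists, Angptl8 (3.75), Adrb3 (1.72), Aacs (1.45), Gpd1 (1.31), Pparg (1.19) and Dgat2 (1.18) were called higher at 1 d than at 6 h. The size for Angptl8 is not exact, since its Cop NMU mean at 6 h lay below the lowest array median. In Cop at 1 d, 2 adipocyte markers rose (Pnpla2 by 1.26 and Cidec by 0.82) and 0 of 15 muscle markers were called (score -2.78 to 1.09 in NMU glands, -2.99 to -0.82 in controls).

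In F344 at 1 d none of the 10 genes was called, against 0.174% of probe sets called lower. All 10 differences were negative, with a median of -0.47 against 0.01 over all genes tested, and 5 had an unadjusted p under 0.05. The largest were Me1 with -1.21 (SE 0.33, adjusted p = 0.087) and Pnpla3 with -1.13 (SE 0.55, adjusted p = 0.546). NMU replicate 3 stood apart in this group. Me1 had 12.32, 11.99 and 10.42 in F344 NMU glands, against 12.88, 12.91 and 12.56 in controls. Elovl6 had 10.56, 10.98 and 8.48 in NMU glands, against 11.05, 10.92 and 10.73 in controls. In both genes the lowest NMU array was replicate 3, and its score over the 10 genes was 0.23, against 1.29 and 1.31 in replicates 2 and 1. The muscle score of the F344 NMU arrays at 1 d ranged from -2.44 to 2.49. With the muscle score as a covariate Me1 was called (adjusted p = 0.0254), as it was without NMU replicate 1 (adjusted p = 0.0126) or without NMU replicate 2 (adjusted p = 0.0472). These fits all keep NMU replicate 3, and leaving out replicate 1 or 2 gives it more weight. NMU replicates 1 and 2 of Me1 lay below every control but nearer to the controls than replicate 3. For Elovl6 NMU replicate 2 lay within the controls' range.

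The strain difference in response at 1 d was called for Scd (-2.72, SE 0.42, adjusted p = 0.0025), against 0.193% of probe sets called lower. Scd had 13.58, 13.24 and 13.07 in F344 NMU glands and 13.63, 13.47 and 13.43 in F344 controls, so that the difference of -0.21 there stood against -2.93 in Cop. The other 9 strain differences at 1 d ran from -0.71 for Elovl6 to 0.40 for Srebf1 and were not called. In F344 the change in response between 1 d and 6 h was called for 0 of the 10 genes, against 0.347% of probe sets in either direction, and 1 had an unadjusted p under 0.05 (Pnpla3, 1.66, adjusted p = 0.73). That of Scd in F344 was 0.23 (95% interval -0.63 to 1.09).

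At 30 d the NMU differences of the 10 genes ran from -0.49 to 0.57 in Cop and from -0.78 to 0.50 in F344. In Cop 0 of the 10 genes were called lower, against 5.48% of probe sets, with 1 at an unadjusted p under 0.05 (Thrsp). Acss2 was called higher, against 4.42% of probe sets, and the median of the 10 was -0.26, against -0.03 over all genes tested. Acss2 had 8.61, 9.06 and 8.91 in Cop NMU glands, against 8.48, 7.93 and 8.45 in Cop controls, a difference of 0.57 (SE 0.16, adjusted p = 0.0213). The NMU arrays all lay above the controls, of which replicate 2 was lowest. The call was lost without control replicate 2 (difference 0.39, adjusted p = 0.125), NMU replicate 2 (adjusted p = 0.0958) or NMU replicate 3 (adjusted p = 0.117). It was also lost with the adipocyte score as a covariate (difference 0.40, adjusted p = 0.147) and on the compared arrays alone (adjusted p = 0.36).

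Thrsp in Cop at 30 d had 12.05, 12.75 and 11.69 in NMU glands, against 12.67, 12.51 and 12.65 in controls (difference -0.44, SE 0.16, adjusted p = 0.0693). The arms overlapped through NMU replicate 2, the highest of the 6 arrays, and without it Thrsp was called (difference -0.74, adjusted p = 0.00169). It was also called with the adipocyte score as a covariate (difference -0.61, adjusted p = 0.0314). Fasn had 11.76, 11.38 and 10.54 in NMU glands, against 11.31, 11.61 and 11.83 in controls (difference -0.35, adjusted p = 0.292). Its NMU replicates 1 and 2 lay within the controls' range, and replicate 3 lay below it. Without NMU replicate 1 Fasn was called (difference -0.62, adjusted p = 0.0326). Beside these values, 4 of 15 luminal markers and 7 of 11 lymphocyte markers fell in Cop at 30 d, and 3 of 17 adipocyte markers rose (Plin1 by 1.16, Plin4 by 1.11 and Cidec by 0.79). The lymphocyte score was 0.88, -2.51 and -2.22 in NMU replicates 1, 2 and 3, against 0.53 to 1.06 in controls. The adipocyte score was -0.51 to 0.31 in NMU glands and -0.83 to -0.01 in controls. The muscle score was -4.06 to 1.58 in NMU glands and -1.08 to -0.31 in controls. On the compared arrays alone 0 of the 20749 probe sets were called in either direction. The part of luminal and lymphocyte content was not tested. Of the other synthesis genes Olah (-1.83), the thioesterase that releases medium-chain fatty acids for milk, Fads2 (-1.09) and Taldo1 (-0.55) fell. The Cop NMU mean of Fads2 (5.24) lay below the lowest array median, so its size is not exact. Of the regulators Nr1h3 (0.76), which encodes the sterol receptor LXR alpha, and Sik1 (0.76), a kinase, rose.

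In F344 at 30 d 0 of the 10 genes were called lower, against 2.63% of probe sets, and 0 higher, against 0.665%. The median was -0.21 against -0.05 over all genes tested, and 3 genes had an unadjusted p under 0.05: Acly, Srebf1 and Acss2. Acly had 10.31, 10.29 and 10.75 in F344 NMU glands, against 11.36, 10.99 and 11.34 in F344 controls (difference -0.78, SE 0.25, adjusted p = 0.0811), without overlap. Without NMU replicate 3 Acly was called (difference -0.93, adjusted p = 0.0484). Srebf1 had 9.997, 10.07 and 10.08 in NMU glands, against 10.51, 10.24 and 10.79 in controls (difference -0.46, SE 0.15, adjusted p = 0.0783). Without control replicate 2, the lowest control, Srebf1 was called (difference -0.60, adjusted p = 0.0232). Acss2 had 8.64, 8.51 and 8.96 in NMU glands, against 8.18, 8.28 and 8.16 in controls (difference 0.50, SE 0.16, adjusted p = 0.0745). The NMU arrays of Acss2 lay above the controls here too, and its adjusted p was 0.0312 after quantile normalization. The strain difference in response at 30 d was called for 0 of the 10 genes, 0 had an unadjusted p under 0.05, and 0% of all probe sets were called in either direction. For Acss2 that difference was 0.08 (95% interval -0.38 to 0.53). The muscle score was -0.30 to 1.59 in F344 NMU glands at 30 d and -4.35 to -0.45 in controls. All 17 adipocyte markers had positive differences there and 1 was called (Plin1, 0.90), with a score of -0.16 to 0.19 in F344 NMU glands and of -0.40 to -0.28 in controls, without overlap. Of 15 luminal markers 13 were negative and 0 called (score 0.05 to 0.63 in NMU glands, 0.51 to 1.18 in controls). Of 11 lymphocyte markers 10 were negative and 0 called (score -0.74 to 0.11 in NMU glands, -0.28 to 1.15 in controls). The part of luminal and lymphocyte content in the F344 values at 30 d was not tested.

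Levels in control glands differed between the strains as well. Over the controls of all times 9 of the 10 genes were lower in Cop than in F344, against 12.9% of probe sets called lower, and the median was -0.87 against 0.03 over all genes tested. The comparison shares its control arrays with the NMU comparisons above. The largest difference was that of Scd (-1.57, SE 0.17, adjusted p = 1.03e-07), followed by Me1 (-1.39), Elovl6 (-1.32), Pnpla3 (-1.17) and Acaca (-0.98). Acly (-0.76), Fasn (-0.56), Acss2 (-0.51) and Thrsp (-0.38) differed less. Thrsp was not called with the adipocyte score as a covariate (-0.24, adjusted p = 0.129). Srebf1 was the member not called (-0.14, 95% interval -0.31 to 0.04). Of the other lists 13 of 35 synthesis genes, 8 of 25 regulators and 10 of 16 triglyceride synthesis genes were lower in Cop, and 1, 3 and 1 were higher. Of all probe sets 13.1% were called higher in Cop, a share near that of the regulators called higher. Beside them 9 of 17 white adipocyte markers and 6 of 15 muscle markers were lower in Cop, and 4 of 15 luminal markers were higher. Of 4 brown adipocyte markers 3 were lower in Cop too: Cox8b (-2.13), Cidea (-0.87) and Ppargc1a (-0.43).

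The strain difference was not alike at all times. Within 6 h, 9 of the 10 genes were lower in Cop controls than in F344 controls, against 7.36% of probe sets called lower, with a median of -1.23. Within 1 d 4 were (Scd, Me1, Acaca and Acss2), against 9.35% of probe sets, with a median of -0.81. Within 30 d Scd alone was, against 1.62% of probe sets, with a median of -0.40. Scd had 10.97, 11.002 and 11.17 in Cop controls at 30 d, against 12.99, 12.37 and 12.94 in F344 controls (difference -1.72, SE 0.29, adjusted p = 0.000503). The strains did not overlap for Scd at 30 d, as at the earlier times. Elovl6 differed between the strains by -2.31 at 6 h (SE 0.40, adjusted p = 0.000238), by -0.96 at 1 d (SE 0.40, adjusted p = 0.113) and by -0.70 at 30 d (SE 0.40, adjusted p = 0.497). Acss2 differed by -0.96 at 6 h and by 0.08 at 30 d (SE 0.16, adjusted p = 0.88). These comparisons within times were added after the data were seen.

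**Figure D4:**
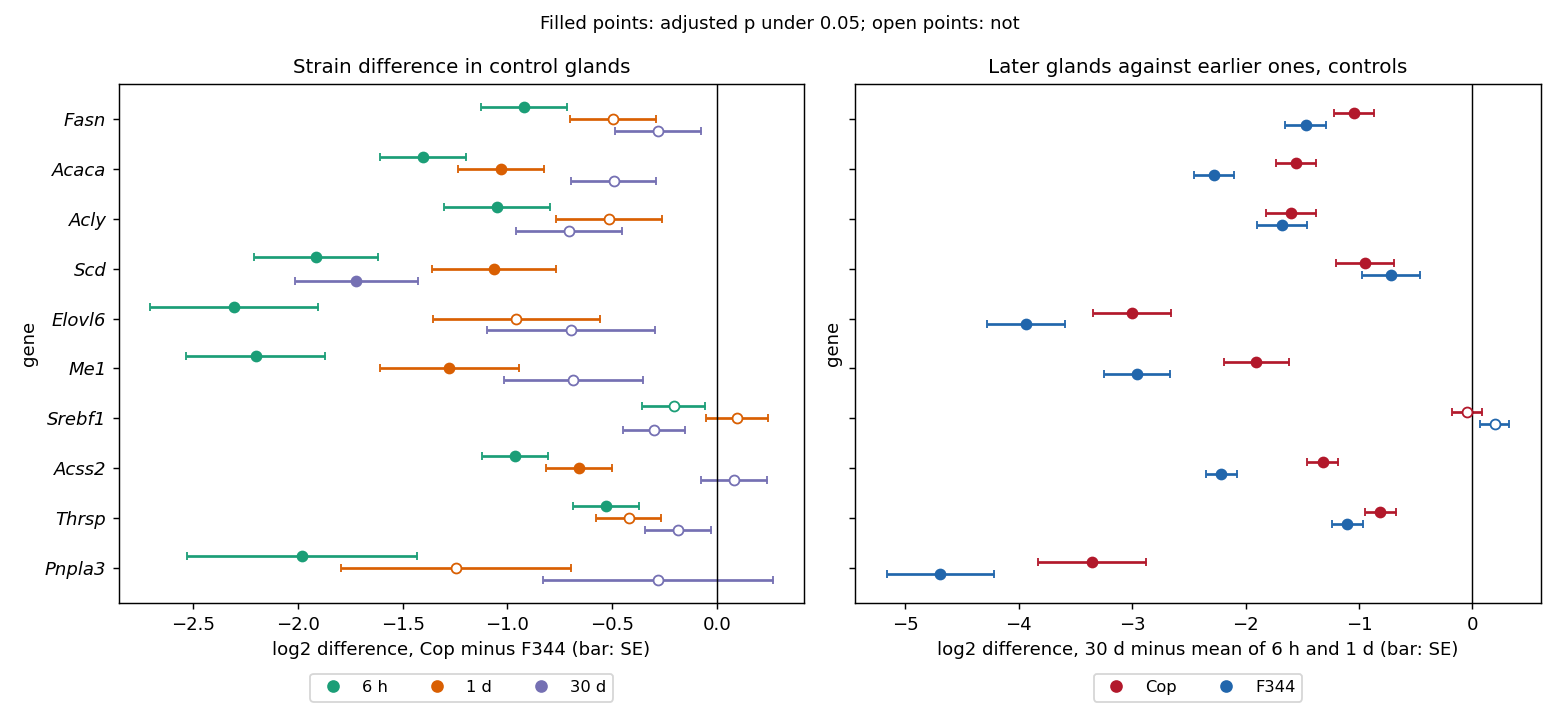
Log2 differences between control groups for each gene (rows), with bars of 1 SE and filled points for an adjusted p under 0.05. Left, Cop minus F344 at each time. Right, 30 d minus the mean of 6 h and 1 d in each strain. At 30 d Scd (-1.72) is the gene with a filled point on the left, and on the right every gene but Srebf1 has filled points in both strains.

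Control glands of 30 d differed from those of the earlier times. Over both strains 9 of the 10 genes were lower at 30 d, against 16.4% of probe sets called lower, with a median of -1.70 against 0.01 over all genes tested. Pnpla3 had 7.06, 5.64 and 6.23 in F344 controls at 30 d, against 10.82 to 11.15 in the 6 earlier F344 controls. In Cop controls it had 6.06, 5.55 and 6.48 at 30 d, against 8.71 to 9.88 at the earlier times. The groups lay far apart in both strains, and the difference was -4.02 (SE 0.34, adjusted p = 1.22e-09), or 16.3-fold lower. In each strain control replicate 2 at 30 d lay below the lowest array median of 5.66, so this size is not exact. Elovl6 differed by -3.47 (SE 0.24, adjusted p = 4.45e-11), Me1 by -2.43 and Acaca by -1.92. Acss2 (-1.77, SE 0.10, adjusted p = 9.8e-14), Acly (-1.64), Fasn (-1.26), Thrsp (-0.96) and Scd (-0.83) followed. With the adipocyte score as a covariate Scd was not called (-0.77, adjusted p = 0.0554).

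Srebf1, the regulator, differed by 0.08 (95% interval -0.11 to 0.26) between 30 d and the earlier times. Its F344 controls had 10.51, 10.24 and 10.79 at 30 d and overlapped with those of 6 h, which had 10.51, 10.11 and 10.57. Within each strain the same 9 genes were lower at 30 d, in Cop with a median of -1.44 and in F344 with a median of -1.95, against 5.67% and 13.3% of probe sets called lower. The change to 30 d differed between the strains for Acss2 (Cop minus F344, 0.89, SE 0.19, adjusted p = 0.009), against 2.4% of probe sets called higher. It was -1.32 in Cop and -2.21 in F344. Mlxipl (-2.19) and Insig1 (-1.82) were among the 8 of 25 regulators that were lower at 30 d, and 4 were higher. Over both strains 16.4% of all probe sets were called lower at 30 d and 13.7% higher. Of 16 triglyceride synthesis genes 10 were lower, among them Gpam (-3.24) and Agpat2 (-2.41), and 1 was higher. Beside them 11 of 17 white adipocyte markers, 2 of 4 brown adipocyte markers and 2 of 15 muscle markers were lower at 30 d. Of 15 luminal markers 10 were higher. The counts of regulators called higher and of muscle markers called lower were near the shares of all probe sets. Between 1 d and 6 h the controls differed for 0 of the 10 genes, 2 had an unadjusted p under 0.05 (Scd and Me1), and 0.183% of probe sets were called in either direction.

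The members moved together across the 36 arrays, which share the groups described above, so the correlations are descriptions. Acaca followed the mean of the other 9 most closely (r = 0.981), followed by Me1 (0.976), Acly (0.967), Elovl6 (0.960) and Fasn (0.951). Srebf1 (0.452) and Scd (0.638) followed it least. Within groups, where treatment, strain and time are removed, r was 0.903 for Acly, 0.891 for Me1, 0.552 for Scd and 0.419 for Srebf1. The measured range differed among members: over all arrays Pnpla3 ranged over 6.03 on the log2 scale and Elovl6 over 5.37, against 2.33 for Thrsp and 2.11 for Srebf1. Thrsp reached 14.02, near the highest value of any probe set (14.31), and Pnpla3 went down to 5.13. Whether the ends of the scale limited these ranges was not tested.

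Of all other named genes, the 8 whose pattern was most like the mean of the members over the 36 arrays were Pygl (r = 0.972), glycogen phosphorylase of liver type, Slc25a1 (0.969), Pdhb (0.967), a subunit of pyruvate dehydrogenase, and Tkt (0.962), transketolase. They were followed by Aco1 (0.960), a cytosolic aconitase, Gbe1 (0.960), the glycogen branching enzyme, Pc (0.959) and C8h11orf54 (0.958). The triglyceride synthesis score correlated with that of the members at r = 0.957, and at 0.768 within groups. The white adipocyte score correlated at 0.571 over all arrays and at -0.157 within groups, and the muscle score at 0.302 and -0.345. For the luminal score these values were -0.220 and 0.441. They were 0.507 and -0.269 for the brown adipocyte score and 0.222 and 0.104 for the lymphocyte score. All these scores come from the same 36 arrays.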

How the data were processed

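The authors deposited one log2 expression value for each probe set and array. Array medians lay between 5.66 and 5.77, and no further normalization was applied. Per the submitters' processing notes the software was GCOS; the sources used here give neither its version nor how probes were summarized. Per the labels' protocols, biotin-labelled cRNA was made from total RNA. Precision is limited by the number of arrays, which carry no read depth.

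The table holds 31099 probe sets, of which 20832 carry 1 gene symbol, 436 several and 9831 none. The filter asked for a value above the array's 40th percentile on at least 3 arrays, and it kept 20749 probe sets, with 57 manufacturer controls left out. Group means (12 groups, 36 arrays) were fitted in R 4.3.3 by limma 3.58.1 with mean-variance trend and robust moderation, and two-sided p-values were adjusted by Benjamini-Hochberg within each comparison. The fit was tested on simulated data. Differences are NMU minus control, Cop minus F344, and later minus earlier.

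The members and lists were chosen with earlier results of these data known. All 10 members are named in each comparison, by their brightest probe set. Of other lists up to 4 genes of smallest p may be named, and of genes alike in pattern the 8 of highest correlation. A list score is the mean deviation of its genes from their means.

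Replicate numbers come from the labels. In Cop the same-numbered arrays had correlated deviations at 6 h (0.114, 0.142 and 0.435) and at 1 d (0.202, 0.424 and 0.315). Arrays of different numbers were not compared in this way and the labels name no pairs, so these values do not show pairing. In the other strain and time groups at least 1 correlation was under 0.1. The replicate block took same-numbered arrays as pairs in every strain and time group. Alternatives were the replicate block, quantile normalization, other filters, a floor, other moderation, averaged probe sets, adipocyte or muscle score as covariate, the compared arrays alone, and leaving out each array.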

Additional observations from a re-analysis of the deposited data

Results flagged for a closer look

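The response to NMU differed between the strains at 6 h, tested as Cop minus F344, for Fasn (-1.53), Acaca (-1.45) and Srebf1 (-1.24). At 1 d it differed between the strains for Scd (-2.72). Within Cop the response at 1 d minus that at 6 h was 1.60 for Srebf1, 1.41 for Fasn, 0.81 for Thrsp and -1.95 for Scd.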

How the results depend on the processing

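The precision rests on 3 arrays a group, and the p-values on the spread pooled over 12 groups. With the compared arrays alone, which have fewer arrays to set the spread, the members called lower were 7 in Cop at 1 d, 0 in F344 at 6 h and 6 in the strain difference at 6 h, and those called higher were 0 in Cop at 30 d and 1 (Fasn) between 1 d and 6 h in controls. The Cop change in response between 6 h and 1 d then gave 6 higher and 0 lower. With the adipocyte score as a covariate 2 were lower in F344 at 6 h, and in Cop at 30 d 1 was lower (Thrsp) and 0 higher. The count in F344 at 6 h was also 2 when the probe sets of each gene were averaged and after quantile normalization, and quantile normalization gave 1 higher (Acss2) in F344 at 30 d. With the muscle score as a covariate 1 (Me1) was lower in F344 at 1 d. With the replicate block 1 was lower in F344 at 1 d (Me1, adjusted p = 0.0368) and 1 in F344 at 30 d (Acly, adjusted p = 0.0347). In that fit Acly was called in the strain difference at 6 h (adjusted p = 0.0471). The block took same-numbered arrays as pairs in both strains. For F344 at 6 h the correlations of same-numbered arrays were -0.0137, 0.350 and 0.507, which do not show pairing. Besides these and the values given with the results, the replicate block changed no call of a member. Within 1 d and within 30 d, settings added later, 4 and 1 were lower in Cop controls than in F344 controls. Acss2 turned to 0.0805 within 30 d, and Srebf1, which was not called, to 0.10 within 1 d (strains) and to -0.05 within Cop (30 d against earlier controls). In the fits above other than those within times, the shares of all probe sets called in the same direction ran from 0% to 2.55%. The cause of these shifts was not tested. Leaving out each array in turn gave 8 to 9 members called lower in Cop at 6 h, 3 in Cop at 1 d, 0 to 1 in Cop at 30 d and in F344 at each time, 3 and 1 in the strain differences at 6 h and 1 d, and 9 in both comparisons of controls. For members called higher it gave 0 to 1 in Cop at 30 d and 2 in the Cop change in response between 6 h and 1 d. The shares of all probe sets called were not kept for these fits, so their counts have no share beside them. Over single members and the settings other than leaving out arrays and those within times or strains, 1356 of 1400 values stayed on their side of the threshold, 27 passed it newly and 17 lost it. Of the 1400, 25 changed sign, none of them called in either fit. Leaving out arrays changed the sign of 77 of 1440 values, again none of them called in either fit.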
